A study of Mus musculus with 12 samples.

Results

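The integrin and laminin genes of the mouse were followed from embryonic stem cells (ESCs) to epiblast-like cells (EpiLCs). The members were the protein-coding genes of the deposited table whose symbol is Itga or Itgb with a number or letter chain name, or Lama, Lamb or Lamc with a number. This gave 37 of the 51467 genes, 26 integrins (18 alpha and 8 beta chains) and 11 laminins (5 alpha, 3 beta and 3 gamma chains). Integrin-binding proteins and the integrin-like genes Itgbl1 and Itgb2l did not meet the rule. Of the 37, 24 passed a filter on low values (3 or more reads per 1000000 gene reads, CPM, in 3 libraries or more), and 13 did not. Passing the filter can depend on 1 group in which a gene is high, so counts over the 24 describe measured genes and not the families.

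Laminins are large secreted proteins built from an alpha, a beta and a gamma chain, and they form the sheet on which a basement membrane is laid down. Integrins are surface receptors made of an alpha and a beta chain. They bind laminins, fibronectin and other matrix proteins outside the cell and link them, through talin, kindlin and vinculin, to actin inside. In the early mouse embryo, laminin lies beneath the epiblast, and signals through integrins that hold the Itgb1 chain accompany the change from a ball of naive cells to an epithelium around a lumen.

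The libraries came from ESCs grown with 15% serum, LIF and the 2i inhibitors PD0325901 and CHIR99021, which hold cells in the naive state, and from EpiLCs collected about 56 hours after LIF and 2i were withdrawn. The methods of the study name a V6.5 ESC line with fluorescent reporters of miR-290 and miR-302 as the line that was differentiated, the labels name no line, and no other allele is given for any group. All cells received 500 µM 4-thiouridine (4sU) for 30 minutes. RNA that carried the label was captured (4sU libraries, read here as nascent RNA), and unselected RNA was depleted of ribosomal RNA (total libraries, read as mRNA). Each of the 4 groups had 3 libraries. The study calls its replicates biological, and neither it nor the labels say whether they were separate cultures, so p-values measure the spread between these libraries.

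Gene counts summed to 3097693 to 5385644 reads in the 4sU libraries and to 9300845 to 21975684 in the total libraries, which makes nascent values of weak genes the less precise. All 8 naive markers were lower and all 5 EpiLC markers were higher in EpiLC total RNA. The ESC libraries numbered 3 stood apart from the other ESC libraries on the third principal component (2.26% of the variance, scores of -39.12 and -20.42 against 7.712 to 23.3), and the total library of the pair gave the highest ESC total level of several members, among them Lamc1, Itgb1 and Lama4. Without both of them the counts of members called were as with all libraries (7 higher and 10 lower for mRNA, 7 and 7 for nascent RNA, 1 and 1 for stability). Markers of primitive and parietal endoderm summed to 7.18 to 15.6 CPM in ESC and 25.1 to 25.9 CPM in EpiLC total RNA, with Sox7, Foxa2 and Gata6 each under 1 CPM on average in both. Of the 9 genes of that list, 5 were measured, 3 higher (means of 0.648 to 11.1 CPM for Dab2, 2.87 to 5.48 for Gata4 and 2.41 to 5.52 for Plat) and Sox17 lower. Fibroblast markers summed to 11.3 to 15.6 and 16.8 to 22 CPM, with 4 of 11 genes measured. Of these, Dcn (0 to 4.81 CPM) and Col1a2 (0.157 to 4.26 CPM) were called higher and Pdgfrb (8.54 to 2.02 CPM) lower, while Fap had no read and Postn a mean of at most 0.0331 CPM. Trophoblast and epidermis markers summed to 2.06 to 2.87 and 5.58 to 7.49 CPM, and the 1 measured gene of 7, Krt7, was called higher (1.24 to 5.72 CPM), with Elf5 at 0 reads in EpiLC total RNA. Leukocyte markers fell from 51.9 to 63.9 CPM in ESCs to 2.58 to 3.24 CPM in EpiLCs and endothelial and platelet markers from 182 to 203 CPM to 7.58 to 9.54 CPM, mostly through Laptm5 (53.7 to 0.928 CPM) and Pecam1 (177 to 4.20 CPM), with Cd3e (3.25 to 0.133 CPM) and Tek (14.2 to 4.15 CPM) also called lower. Ptprc, which defines leukocytes, had 0 reads in all ESC libraries and Cdh5, which defines endothelium, had 0 in ESC total RNA. The part of these markers in the results on integrins and laminins was not tested. In such bulk samples, fewer cells of a type and less RNA per cell cannot be told apart.

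Sequences before the transcription start were available from RefSeq (build GRCm38.p6) for 23 of the 37 members. They are shown for genes whose chains rose and took a large share in EpiLCs, on the receptor side (Itgb1 and Itga3) and on the laminin side (Lama5 and Lamb1), and for Lamb2, whose mRNA and nascent RNA moved apart. Capitals mark GC boxes, the letters GGGCGG on either strand. Each run is written on the strand of its gene, ends at the start site or where an annotated exon begins, and lies at chr8:128685404-128685653 (Itgb1, plus strand), chr11:95076802-95076964 (Itga3, minus strand), chr2:180225860-180226109 (Lama5, minus strand), chr12:31265043-31265233 (Lamb1, plus strand) and chr9:108479612-108479735 (Lamb2, plus strand).
Itgb1: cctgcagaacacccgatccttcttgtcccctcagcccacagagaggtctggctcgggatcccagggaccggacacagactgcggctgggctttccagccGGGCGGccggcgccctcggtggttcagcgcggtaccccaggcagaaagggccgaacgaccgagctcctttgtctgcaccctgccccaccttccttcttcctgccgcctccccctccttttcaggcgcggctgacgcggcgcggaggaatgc
Itga3: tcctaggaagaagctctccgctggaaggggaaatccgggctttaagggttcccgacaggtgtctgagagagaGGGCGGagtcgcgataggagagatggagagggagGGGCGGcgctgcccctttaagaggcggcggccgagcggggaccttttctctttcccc
Lama5: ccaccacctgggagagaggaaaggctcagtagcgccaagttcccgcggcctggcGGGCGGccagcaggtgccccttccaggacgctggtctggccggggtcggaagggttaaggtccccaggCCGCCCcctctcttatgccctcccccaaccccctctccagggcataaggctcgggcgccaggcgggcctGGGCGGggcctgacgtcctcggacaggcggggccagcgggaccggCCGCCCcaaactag
Lamb1: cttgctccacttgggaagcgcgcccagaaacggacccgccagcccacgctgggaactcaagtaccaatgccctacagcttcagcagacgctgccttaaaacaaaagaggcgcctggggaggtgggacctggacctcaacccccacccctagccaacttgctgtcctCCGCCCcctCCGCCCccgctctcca
Lamb2: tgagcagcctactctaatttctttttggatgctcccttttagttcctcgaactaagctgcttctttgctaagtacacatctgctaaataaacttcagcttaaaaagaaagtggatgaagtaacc

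The GC boxes numbered 1 in the Itgb1 run, 2 in Itga3, 4 in Lama5 and 2 in Lamb1, and the Lamb2 run held none. The Lamb2 run was also the poorest in G and C (37.9% against 62.6% to 72.4% in the other runs). It is 124 bases long and ends at 108479735, where an annotated exon begins, short of the Lamb2 start at 108479857. The other runs are 163 to 250 bases long and reach the start of their gene. The bases next to the Lamb2 start are not covered, so the Lamb2 run cannot be set against the others like for like. Over the 250 bases before the start, a GC box occurred in 9 of the 26 windows of members (some genes have more than 1 window) and in 32.7% of all 32851 windows. CCAAT on either strand occurred in 4 of the 26 and in 33.8% of all windows, and TATAAA on either strand in 0 of the 26 and in 12.4% of all. These matches describe letters in a window and say nothing of factors bound there.

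To see how the families changed, 3 differences were fitted with limma-voom for all 14731 genes kept: that of EpiLC from ESC total RNA (the mRNA change), that of EpiLC from ESC 4sU RNA (the nascent change), and the first less the second (the stability change). A gene was called where the log2 fold change passed 1 in either direction with an adjusted p (Benjamini-Hochberg) below 0.05. In mRNA, 7 of the 24 members were higher in EpiLCs, against 16.3% of all genes tested, and 10 were lower, against 11.2%. In nascent RNA 7 were higher, against 11.9%, and 7 were lower, against 13.5%. The stability change was called higher for 1 member, against 1.24% of all genes, and lower for 1, against 0.305%. Laminins gave 2 higher and 5 lower calls among 9 measured, and integrins 5 and 5 among 15. The median mRNA change was -1.25 for laminins and -0.34 for integrins, beside 0.02 for all genes. Of the 17 members called in mRNA, 14 were called in the same direction in nascent RNA, as were 72.5% of all genes called in mRNA. Total and 4sU RNA were split from the same labelled samples, so these are not independent measurements.

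**Figure D1:**
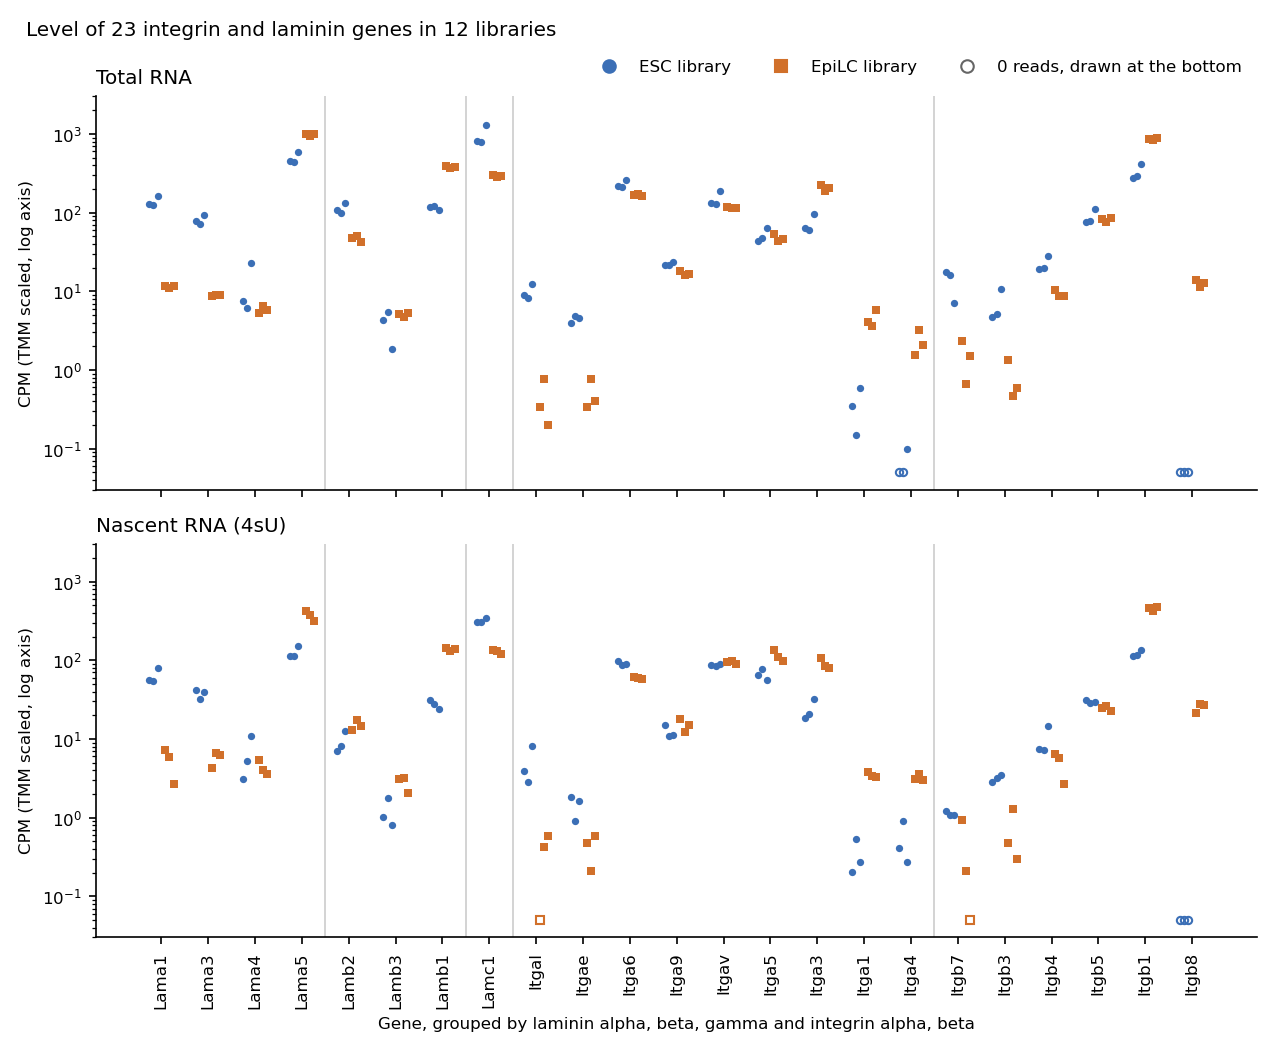
CPM (TMM scaled, log axis) of 23 measured members in each library, total RNA above and nascent RNA below, ESC libraries as blue circles and EpiLC libraries as orange squares, 3 each; open symbols are libraries with 0 reads. Lama1, Lama3 and Lamc1 sit lower in every EpiLC library and Lamb1, Itga3 and Itgb1 higher, in both assays, and Itgb8 has reads in EpiLC libraries only.

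The alpha chains of the laminins changed in balance. Lama1, the alpha chain of the first laminin of the embryo, was one of 3 well-expressed alpha chains in ESCs and was nearly lost in EpiLCs, while Lama5, the alpha chain of the laminin that persists in most epithelia, rose. Lama1 (chr17:67697265-67822645) stood at 127, 125 and 163 CPM in the ESC total libraries and at 11.6, 11 and 11.7 CPM in the EpiLC total libraries. Every EpiLC library lay below every ESC library, and the log2 fold change was -3.57 ± 0.18 (SE; limma-voom adjusted p = 6.68e-10). Nascent Lama1 fell by a like amount, from 55.8, 54.7 and 79.2 CPM to 7.30, 5.93 and 2.67 CPM (log2 fold change -3.56 ± 0.35, adjusted p = 1.36e-06).

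Lama3, an alpha chain best known from skin and other stratified epithelia, fell alongside Lama1. Its mRNA went from 78.5, 71.7 and 93.9 CPM to 8.81, 9.10 and 8.85 CPM (-3.16 ± 0.15, adjusted p = 3.91e-10), and its nascent RNA from 41.9, 32.4 and 39.6 CPM to 4.24, 6.57 and 6.23 CPM (-2.72 ± 0.26, adjusted p = 1.12e-06). The groups did not overlap in either assay. Annotated Lama3 exons share 197 bases with an antisense gene, Gm29200, on the opposite strand, and counting used strand.

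Lama5 (chr2:180176373-180225859) had 452, 438 and 597 CPM in ESC total RNA and 1002, 939 and 1003 CPM in EpiLC total RNA. The libraries of both cell types did not overlap, and the log2 fold change of 1.00 ± 0.12 (adjusted p = 5.35e-06) was just past the threshold of 1. Over 23 alternative settings it ran from 0.92 to 1.14 and fell short of the threshold in 10 of them, among them the fits without ESC total replicate 1 (0.94) or 2 (0.92) and without EpiLC total replicate 1 or 3 (0.99 each). Nascent Lama5 rose further, from 115, 112 and 154 CPM to 421, 375 and 320 CPM (1.57 ± 0.15, adjusted p = 9.17e-07). All 23 settings kept the nascent call.

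Lama4, an alpha chain of vessels and muscle, was not called in the main fit. ESC total replicate 3 held 22.6 CPM of it against 7.47 and 6.19 CPM in the other ESC libraries, and the EpiLC libraries held 5.36, 6.54 and 5.77 CPM, so that 1 of them lay within the ESC range and the others just under it (-0.62 ± 0.41, adjusted p = 0.209). Over 23 alternative settings the Lama4 mRNA change ran from -1.05 to -0.19, and DESeq2 alone called it lower (-1.05, DESeq2 adjusted p = 0.0476). Lama2, the alpha chain of muscle basement membrane, stayed below the filter with at most 12 reads in a library.

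Among the beta chains, Lamb1 rose and Lamb2 fell. Lamb1 (chr12:31265234-31329644), the common partner of Lama1 and Lama5, had 119, 121 and 107 CPM in ESC and 391, 370 and 378 CPM in EpiLC total RNA (1.71 ± 0.07, adjusted p = 1.38e-10). Its nascent RNA rose from 31.3, 27.6 and 24.1 CPM to 142, 131 and 138 CPM (2.30 ± 0.11, adjusted p = 1.36e-09). Neither assay showed overlap. The rise was larger in nascent RNA than in mRNA, and the stability change of -0.59 ± 0.13 had an adjusted p of 0.0256 but did not reach the threshold of fold.

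Lamb2 (chr9:108479857-108490530), the beta chain of mature basement membranes such as those of kidney and synapse, was the 1 member whose mRNA was called lower while its nascent RNA stood higher. Its mRNA went from 107, 98.5 and 133 CPM in ESCs to 47.8, 50.4 and 42.3 CPM in EpiLCs (-1.25 ± 0.12, adjusted p = 4.51e-07). Nascent Lamb2 stood at 6.95, 8.23 and 12.7 CPM in ESCs and at 13, 17.2 and 14.5 CPM in EpiLCs, with the highest ESC library just under the lowest EpiLC library (0.76 ± 0.28, adjusted p = 0.0314, below the threshold of fold). The stability change was -2.01 ± 0.30 (adjusted p = 0.00368), the 1 lower call among the members. It kept its call in all 24 alternatives, over a range from -2.21 to -1.84. Lamb3, a partner of Lama3 in skin, was weak (3.85 ± 1.80 CPM in ESC and 5.05 ± 0.276 CPM in EpiLC total RNA, SD, n = 3) and was not called (0.37 ± 0.28, adjusted p = 0.258).

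Among the gamma chains, Lamc1 fell. Lamc1 (chr1:153218922-153332786), the gamma chain of most laminins, had 807, 802 and 1292 CPM in ESC and 302, 282 and 289 CPM in EpiLC total RNA (-1.69 ± 0.14, adjusted p = 1.13e-07). Its nascent RNA fell from 303, 306 and 346 CPM to 136, 130 and 120 CPM (-1.30 ± 0.17, adjusted p = 1.8e-05). Lamc1 thus moved against Lama5 and Lamb1, the chains it joins in one trimer. No library of one cell type overlapped the other in either assay. Lamc3 had at most 7 reads in any library.

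Levels of chains were compared per kilobase of annotated exon, as the share each gene held of the summed CPM per kilobase of its chain class. In ESC total RNA Lama5 held 64.5%, 64.8% and 63.9% of the laminin alpha class, Lama1 held 21.6%, 22.2% and 20.9%, and Lama3 held 11.9%, 11.2% and 10.6%. In EpiLCs Lama5 alone held 96.7%, 96.3% and 96.6%, and Lama1 held 1.34%, 1.35% and 1.35%. Chains other than Lama5 thus held little of the alpha class in EpiLCs. The share of Lama1 differed by -20.2 percentage points in total RNA and by -28 points in nascent RNA (29.6% ± 0.814 to 1.56% ± 0.541, SD, n = 3; two-sided exact permutation test, p = 0.1 for each). An exact test of 3 against 3 libraries cannot give a smaller p, and all 6 such tests of shares gave p = 0.1, before and after Benjamini-Hochberg adjustment.

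The beta class was evenly held in ESCs and led by Lamb1 in EpiLCs. In ESC total RNA Lamb1 held 50.7%, 52.8% and 43.3% and Lamb2 held 47.2%, 44.5% and 55.8%, and their order differed between libraries. In EpiLCs Lamb1 held 87.6%, 86.5% and 88.3% and Lamb2 held 11.1%, 12.2% and 10.3%. In ESC nascent RNA Lamb1 already held the larger share, 71.4% ± 7.96 against 25.0% ± 8.49 of Lamb2 (SD, n = 3).

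**Figure D2:**
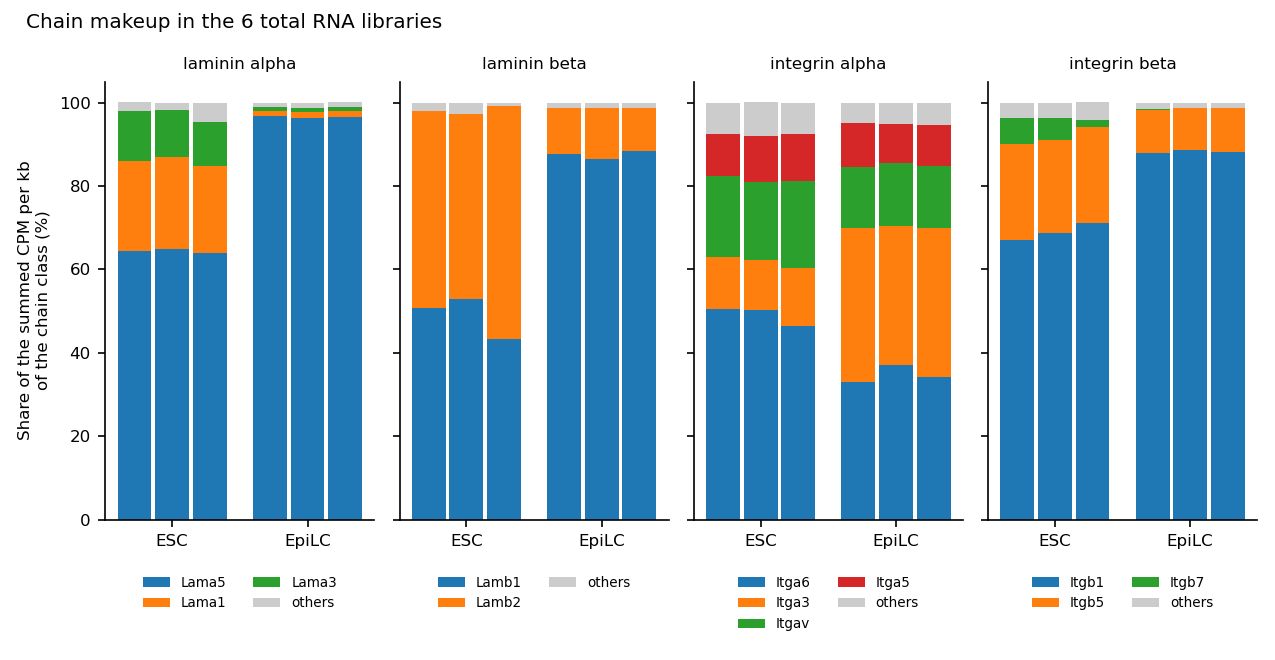
Share of each chain (%) in the summed CPM per kilobase of its class in the 6 total RNA libraries, 3 of ESC at the left and 3 of EpiLC at the right of each panel; chains under 5% in every library are pooled as others. Lama1 and Lama3 all but disappear from the laminin alpha class, Lamb2 gives way to Lamb1, Itga3 joins Itga6 among the integrin alpha chains, and Itgb1 widens its lead among the integrin beta chains.

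On the receptor side, Itgb1, the beta chain shared by most laminin, collagen and fibronectin receptors, was the most abundant integrin per length in both cell types and rose further. Itgb1 (chr8:128685654-128733200) had 272, 295 and 417 CPM in ESC and 869, 830 and 894 CPM in EpiLC total RNA (1.43 ± 0.12, adjusted p = 9.97e-08). Nascent Itgb1 rose from 113, 117 and 135 CPM to 466, 429 and 475 CPM (1.91 ± 0.14, adjusted p = 8.76e-08). The cell types did not overlap in either assay. Its share of the beta class went from 67%, 68.6% and 71% to 87.8%, 88.7% and 88.2% in total RNA, a difference of 19.3 points, and by 18.4 points in nascent RNA (two-sided exact permutation test, p = 0.1 for each).

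Itga3, an alpha chain that with Itgb1 binds laminins carrying Lama5, rose with it. Itga3 (chr11:95044474-95076801) had 64.1, 59.9 and 95.7 CPM in ESC and 222, 186 and 203 CPM in EpiLC total RNA (1.52 ± 0.16, adjusted p = 8.88e-07), and its nascent RNA went from 18.4, 20.8 and 32.0 CPM to 108, 85.6 and 80.4 CPM (2.02 ± 0.24, adjusted p = 7.77e-06). Both rises left the groups apart. Itga6, the other main laminin-binding alpha chain, stood lower in EpiLCs by less than the threshold of fold. Its mRNA stood at 215, 210 and 262 CPM in ESCs and 166, 172 and 161 CPM in EpiLCs (-0.45 ± 0.08, adjusted p = 0.00027, not called) and its nascent RNA stood at 96.9, 87.7 and 89.7 CPM and at 61.0, 60.4 and 57.3 CPM (-0.61 ± 0.11, adjusted p = 0.000299, not called).

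Within the alpha class, Itga6 held 50.5%, 50.3% and 46.3% in ESC and 33.0%, 37.1% and 34.2% in EpiLC total RNA, a difference of -14.2 points, and -18 points in nascent RNA (two-sided exact permutation test, p = 0.1 for each). Itga3 held 12.5%, 11.9% and 14% in ESC and 36.8%, 33.2% and 35.7% in EpiLC total RNA. Per length in total RNA, Itga6 was thus well ahead of Itga3 in ESCs (52.5 ± 6.51 against 13.9 ± 3.72 CPM per kilobase, SD, n = 3). In EpiLC total RNA they did not differ beyond their spread (38.1 ± 1.28 against 38.7 ± 3.43). Itgav held more than Itga3 in ESC total RNA (19.6% ± 1.08). In nascent RNA, Itga6 held the largest share in ESCs (36.3% ± 1.54). In EpiLC nascent RNA, Itga5 held the largest share (34.5% ± 1.73), and Itga3 (23.1% ± 1.15) stood ahead of Itga6 (18.3% ± 1.53).

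Itga5, Itgav, Itgb5 and Itga9 were not called in either assay. Itga5, the alpha chain of the main fibronectin receptor, had 43.9, 47.2 and 64.3 CPM in ESC and 54.1, 43.8 and 46.9 CPM in EpiLC total RNA, which overlap (-0.07 ± 0.15, adjusted p = 0.694). Its nascent RNA did not overlap, at 65.0, 77.7 and 56.9 CPM and at 134, 111 and 97.0 CPM (0.76 ± 0.16, adjusted p = 0.00139, under the threshold of fold). The stability change of Itga5 was -0.84 ± 0.22 (adjusted p = 0.049, not called); over 24 settings it ran from -1.02 to -0.60, and it was called without ESC total replicate 1. Itgav, which pairs with several beta chains to bind vitronectin and to free TGF-beta, ran from 127 to 190 CPM in ESC and from 114 to 119 CPM in EpiLC total RNA (-0.34 ± 0.12, adjusted p = 0.0211). Its partner Itgb5 ran from 75.8 to 111 and from 76.3 to 85.9 CPM (-0.07 ± 0.12, adjusted p = 0.608), and Itga9, which binds tenascin and osteopontin, from 21.3 to 23.9 and from 15.9 to 18.2 CPM (-0.39 ± 0.12, adjusted p = 0.00896).

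Itgb8, a partner of Itgav that frees latent TGF-beta, went from no reads to a level that was low per length. In the EpiLC total libraries Itgb8 held 0.64%, 0.556% and 0.579% of the beta class. It had 0 reads in all 6 ESC libraries. EpiLC total libraries held 125, 121 and 130 reads (13.9, 11.5 and 12.9 CPM) and EpiLC 4sU libraries 90, 131 and 91 reads (21.2, 27.8 and 27.0 CPM). Against a floor of 3 reads over the ESC group, Itgb8 was at least 213-fold higher in total RNA and at least 121-fold higher in nascent RNA (limma-voom adjusted p = 8.36e-10 and 7.79e-09). With no ESC read in either assay, its stability change has no measured base in ESCs and is not read here. The methods name no molecular identifiers for reads, so floors and counting intervals cover counting error only.

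A pair of alpha chains that join Itgb1 rose from a few reads. Itga1, a collagen and laminin receptor chain, had 0.348, 0.151 and 0.590 CPM in ESC and 4.02, 3.6 and 5.77 CPM in EpiLC total RNA (3.79 ± 0.41, adjusted p = 1.57e-06), with 3 to 6 reads in each ESC total library and 36 to 58 in each EpiLC one. In nascent RNA it rose by 3.07 ± 0.56 (adjusted p = 0.000394). That rise rests on 1, 3 and 1 reads in the ESC 4sU libraries and 16, 16 and 11 in the EpiLC ones. Itga4, a chain that binds fibronectin and Vcam1, had 0, 0 and 1 read in ESC total libraries and 14, 34 and 21 reads in EpiLC total libraries, a ratio of 117 (95% exact interval of the counts, 20.4 to 4706; adjusted p = 1.28e-06). Nascent Itga4 stood at 0.409, 0.895 and 0.271 CPM in ESCs and at 3.06, 3.6 and 2.97 CPM in EpiLCs (2.46 ± 0.59, adjusted p = 0.0029). Its fitted stability change of 3.13 ± 0.84 (adjusted p = 0.049) was the 1 higher call among the members. It rests on the single ESC total read, and it lost its call in 14 of the 23 settings that gave it an adjusted p (DESeq2 gave none). When each of the 12 libraries was left out in turn, the call held in 2 fits, without ESC 4sU replicate 3 (adjusted p = 0.0464) or ESC total replicate 3 (0.00434), and was lost in the other 10, where the adjusted p ran from 0.0559 to 0.143. Annotated Itga4 exons share 127 bases with Cerkl, also on the opposite strand.

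Among the weaker chains, Itgal, Itgae, Itgb7 and Itgb3, all known from blood cells or platelets, fell in mRNA. Itga4, which leukocytes also carry, rose as given with Itga1. Itgal, the alpha chain of the leukocyte receptor for Icam1, went from 8.98, 8.15 and 12.4 CPM to 0.335, 0.758 and 0.199 CPM in total RNA (-4.44 ± 0.59, adjusted p = 1.16e-05) and fell in nascent RNA as well (-3.59 ± 0.76, adjusted p = 0.00125). Itgae, which with Itgb7 binds E-cadherin, went from 3.94, 4.83 and 4.62 CPM to 0.335, 0.758 and 0.398 CPM (-3.09 ± 0.37, adjusted p = 4e-06). Itgb7 itself went from 17.7, 16.2 and 7.18 CPM to 2.34, 0.663 and 1.49 CPM (-3.35 ± 0.55, adjusted p = 9.8e-05), and Itgb3, the beta chain of the platelet fibrinogen receptor, from 4.69, 5.13 and 10.8 CPM to 1.34, 0.474 and 0.596 CPM (-2.97 ± 0.51, adjusted p = 0.000137). No library of one cell type overlapped the other for these 4 genes in total RNA. All 4 reached 3 CPM in ESC libraries only, so they passed the filter through the group where they are high. The share of all genes without overlap was not worked out.

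In nascent RNA the same genes rested on few reads. Itgb7 had 6, 6 and 4 reads in ESC and 4, 1 and 0 in EpiLC 4sU libraries and was not called (-1.74 ± 1.21, adjusted p = 0.24). Nascent Itgae (-1.51 ± 0.54, adjusted p = 0.0304) lost its call under DESeq2 and without ESC 4sU replicate 1 or 3 or EpiLC 4sU replicate 1 or 2, and nascent Itgb3 (-2.15 ± 0.76, adjusted p = 0.0275) without ESC 4sU replicate 2 or 3 or EpiLC 4sU replicate 1 or 3. Of the 9 leukocyte markers, 2 were measured, Laptm5 and Cd3e, and both were called lower in total RNA. Markers under the filter differed in direction. Spi1 stood at a mean of 1.68 CPM in ESC and 0.381 CPM in EpiLC total RNA and Fcer1g at 0.258 and 0.0316 CPM. Cd14 stood at 0.312 and 0.894 CPM, and Ptprc, with 0 reads in ESCs, at 0.319 CPM in EpiLCs. Of the platelet markers, Gp1bb stood at 0.151 and 0.102 CPM, Pf4 had at most 2 reads in a library and Gp9 had 0. The fall of the endothelial and platelet list came mostly from Pecam1 and Tek. The part of blood cells or platelets in the falls of Itgal, Itgae, Itgb7 and Itgb3 was not tested. Itgb4, which pairs with Itga6 in the hemidesmosome of skin, went from 19.5, 20 and 28.3 CPM to 10.4, 8.81 and 8.75 CPM in total RNA (-1.23 ± 0.20, adjusted p = 8.59e-05) and was not called in nascent RNA (-0.86 ± 0.40, adjusted p = 0.0843). Itgb4 exons share 537 bases with the noncoding gene B230344G16Rik on the opposite strand.

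**Figure D3:**
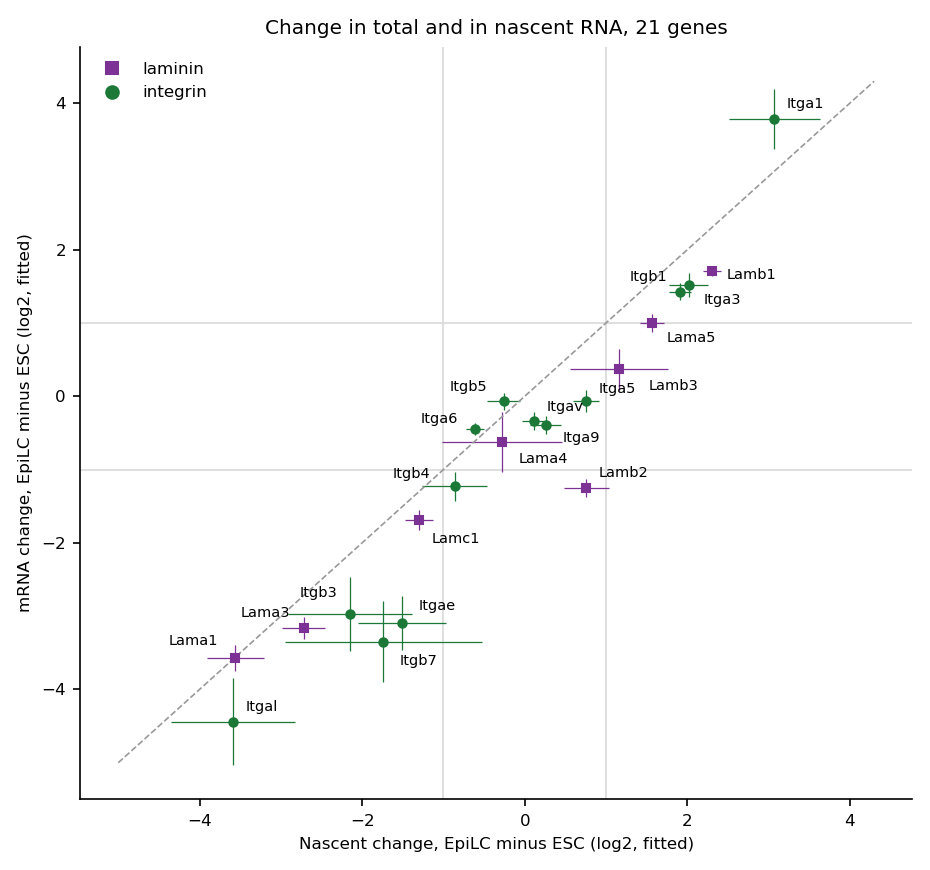
Fitted mRNA change against nascent change (log2, EpiLC minus ESC; bars are SE) of 21 measured members, laminins as squares and integrins as circles; grey lines mark a log2 change of 1 in either direction and the dashed line equal change, and Itga4 and Itgb8 are left out because their ESC total libraries held 1 and 0 reads. Most genes lie along the dashed line and below it, and Lamb2 lies apart, lower in mRNA (-1.25) and higher in nascent RNA (0.76).

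The 13 members under the filter were Itga2, Itga2b, Itga7, Itga8, Itga10, Itga11, Itgad, Itgam, Itgax, Itgb2, Itgb6, Lama2 and Lamc3. Itgad and Itgax, chains of myeloid cells, had 0 reads in all 12 libraries. Itgb6 had at most 2 reads in a library and Itgb2 at most 4 (means of 0.141 CPM in ESC and 0.311 CPM in EpiLC total RNA). The highest means in total RNA were those of Itga7, the muscle laminin receptor chain, with 4.14 ± 1.86 CPM in ESC and 2.23 ± 0.132 CPM in EpiLC total RNA, and Itga10, with 2.92 ± 0.427 and 0.301 ± 0.286 CPM, and Itga8, with 1.49 ± 0.0688 and 3.19 ± 0.39 CPM (SD, n = 3). Itga2b, the platelet alpha chain, stood at 2.14 ± 0.894 and 2.77 ± 0.104 CPM. Exons of Itga10, Itgam and Itgad overlap other genes on the same strand (Gm42957, Gm49368 and Gm17831), so their counts are uncertain.

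Relative mRNA stability, log2 of total over 4sU, was above the median of all genes for 20 of the 24 measured members in ESCs and for 19 in EpiLCs, and for all 9 measured laminins in both. This is relative, since each library is scaled to its own makeup, and it is given without a test. The 24 include Itgb8, with 0 ESC reads, whose ESC ratio is not measured but was fitted below the median. Itga4 (1 ESC total read) and Itga1 (1 to 3 reads in each ESC 4sU library) were also below it in ESCs. Lamb2 stood highest among the laminins in ESCs, with ratios of 3.85, 3.5 and 3.33 in libraries of the same number, and came down to 1.84, 1.53 and 1.51 in EpiLCs (0.5 CPM added to each value). Lamb1 had 1.92, 2.12 and 2.13 in ESCs and 1.45, 1.5 and 1.45 in EpiLCs. Itga5 was the well-expressed exception, below the median of all genes in both cell types, at -0.56, -0.71 and 0.17 and at -1.30, -1.33 and -1.04. The median stability change of the 24 was -0.49, beside 0.11 for all genes, and it takes in the fitted values of Itgb8 and Itga4.

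**Figure D4:**
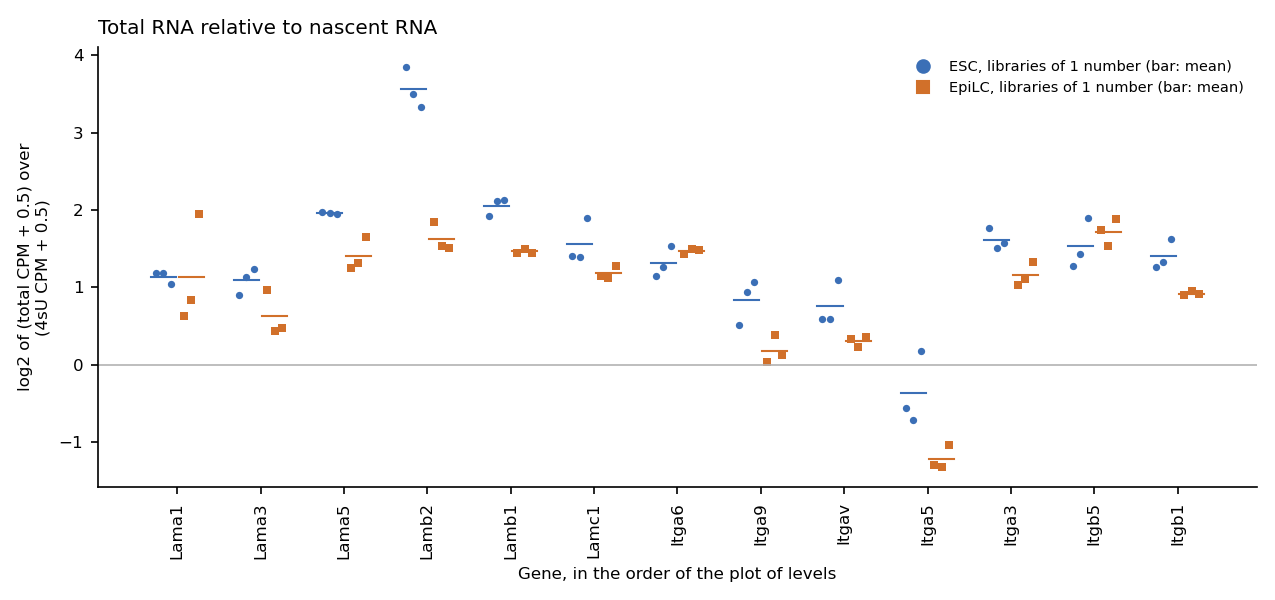
Log2 of total over nascent RNA (0.5 CPM added to each) for 13 members with a mean of at least 5 CPM in the 4sU libraries of both cell types; each point pairs the total with the 4sU library that bears its number, and bars are means. Lamb2 falls from between 3.33 and 3.85 in ESCs to between 1.51 and 1.84 in EpiLCs, and Itga5 lies lowest in both.

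Partners of laminin in the basement membrane, read from a list of 20 genes, were measured for 13. Their mRNA was called higher for 6 and lower for 3, beside 16.3% and 11.2% of all genes tested. The median was 0.75, beside 0.02 for all genes. Nid1 and Nid2, nidogens that tie laminin to collagen IV, fell from a mean of 335 to 22.7 CPM (-3.73 ± 0.31, adjusted p = 1.12e-07) and from 513 to 166 CPM (-1.63 ± 0.11, adjusted p = 1.17e-08). Collagen IV itself rose, Col4a1 and Col4a2 by 1.71 each (adjusted p = 8.94e-10 and 9.96e-08). Fras1, an anchor of embryonic epithelia to their basement membrane, rose from 3.32 to 58.7 CPM (4.34 ± 0.43, adjusted p = 6.45e-07).

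Of 19 other integrin ligands, 13 were measured, 4 higher and 4 lower in mRNA, with a median of 0.10. For these ligands and the receptors below, the shares of all genes tested were 16.3% higher and 11.2% lower. Thbs1, a matrix protein that binds several integrins, rose from 0.776 ± 0.535 to 260 ± 33.3 CPM (8.66 ± 0.48, adjusted p = 1.58e-09) and Ccn1 by 2.66 ± 0.30 (adjusted p = 2.03e-06). Spp1, which encodes osteopontin, fell by 4.45 on the log2 scale (adjusted p = 1.34e-11) and Mfge8, which bridges dying cells to Itgav receptors, fell by 2.89 (adjusted p = 1.18e-09). The 12 laminin receptors and modifiers outside the integrin family, dystroglycan (Dag1) and syndecans among them, were all measured, with 2 higher, 1 lower and a median of 0.05. The syndecan Sdc4, which binds matrix through its sugar chains, fell by 1.52 on the log2 scale (adjusted p = 2.09e-07). Dag1 itself was not called (134 and 183 CPM).

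The adhesion complex inside the cell was read from a list of 39 genes, of which 34 were measured. In mRNA 9 were higher and 5 lower, beside 16.3% and 11.2% of all genes tested, with a median of 0.08. Fermt1, one of the kindlins that switch integrins on, rose from 0.246 ± 0.0468 to 39.7 ± 1.93 CPM (7.14 ± 0.38, adjusted p = 1.04e-09), while the kindlin Fermt2 was not called (172 and 133 CPM). Parva, which links integrin-linked kinase to actin, rose by 2.40 ± 0.17 (adjusted p = 1.44e-08). Tns1, a tensin, fell by 3.22 (adjusted p = 5.55e-06) and Cd9, a tetraspanin partner of integrins, fell by 3.07 (adjusted p = 1.65e-11). Talin (Tln1, 443 and 486 CPM) and Ptk2, the focal adhesion kinase (110 and 146 CPM), were not called. Of the 3 hemidesmosome genes, the collagen Col17a1 was called lower (-2.57 ± 0.48, adjusted p = 0.000272). Col17a1 is named because it was the single call of its list, after its values were seen.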

How the data were processed

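Nascent (4sU) and total RNA were measured in 12 mouse libraries, grouped by the labels. The authors deposited raw read counts per gene: adapters were trimmed with cutadapt 1.14, single-end 50 bp reads from strand-specific kits were aligned with STAR 2.5.3a to mm10, and uniquely placed reads were counted over GENCODE M14 exons (basic set, ribosomal RNA genes removed) with featureCounts 1.5.3, on the reverse strand per the file headers. Unique placement lowers genes with near-identical copies. The 92 spike-in entries held 0 reads. The depth of each sample is given by the sum of deposited counts, 3097693 to 21975684.

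Gene IDs were matched to GENCODE M21 symbols (51274, 99.6%). Genes that reached 3 CPM in 3 libraries or more were fitted with limma-voom (limma 3.58.1, TMM from edgeR 4.0.16, R 4.3.3), with 1 model of 4 groups over all 12 libraries, as in the methods of the study. Adjusted p-values are Benjamini-Hochberg over all genes kept. Levels are TMM-scaled CPM, and chain shares are CPM over the exon length in the deposited table, compared by an exact permutation test (Python 3.11.15, scipy 1.17.1). The fit was also run on simulated counts with known changes, drawn independently for each library, and no result here rests on that run. Alternatives covered scaling, filters, DESeq2 1.42.0, the quasi-likelihood test of edgeR, sample weights, thresholds, replicate blocks and libraries left out.

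The members, gene lists and tests were chosen with earlier results of these data known. Values per library are given for members called in any contrast, or within 0.3 log2 of the fold threshold at an adjusted p under 0.05, and the highest per length in each chain class is named. From each pathway list, the text names the 2 largest rises and 2 largest falls in total RNA among called genes whose mean reached 10 CPM in either cell type, counting Col4a1 and Col4a2, equal to 2 decimals, as a tie. Uncalled list genes and single marker genes were named after their values were seen. Values of 2 genes that the rule would name are not reported here.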

Additional observations from a re-analysis of the deposited data

Results flagged for a closer look

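The stability change, a test of whether the change between cell types differs between total and nascent RNA, passed the threshold for 2 members. For Lamb2 it was -2.01 (limma-voom adjusted p = 0.00368): all 3 EpiLC total libraries lay below the ESC ones, while all 3 EpiLC 4sU libraries lay above. For Itga4 it was 3.13 (limma-voom adjusted p = 0.049), which rests on 1 read in the 3 ESC total libraries. Groups of 3 libraries are too small to test single libraries as outliers.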

How the results depend on the processing

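Of the member results recomputed under each alternative, 1617 values stayed on the same side of the threshold with the same direction, 33 were called before and not after, 5 were gained and 21 changed sign. No called change changed sign. The stability change was called higher for 0 members under TMM factors from the whole table (an alternative chosen after seeing the data), without a filter, with the 1 CPM filter, and with edgeR's quasi-likelihood test or DESeq2, and for 0 to 1 when each library was left out in turn; the call lost was that of Itga4, for which DESeq2 gave no adjusted p and so no verdict. It was called lower for 3 members (Lamb1, Lamb2 and Itga5) with adjusted p alone and for 1 to 2 with each library left out (Itga5 gained without ESC total replicate 1). Without division by length, the shares differed by -17.9 points for Lama1, 17.8 for Itgb1 and, in nascent RNA, -25.5 for Lama1, 15.5 for Itgb1 and -15.4 for Itga6. Exon lengths differ within a class (11388 bases for Lama5 and 9518 for Lama1), so leaving out the division changes the weight of each chain.

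The values whose sign changed were not called. With library totals alone they were 0.02 for the Itga5 and 0.02 for the Itgb5 mRNA change and 0.05 for the Lama1 stability change. With sample weights they were 0.02 (Itga5) and 0.05 (Itgb5) in mRNA and 0.01 for Lama4 stability. Without both ESC libraries numbered 3 they were 0.07 (Itga5) and 0.09 (Itgb5) in mRNA and 0.09 for nascent Lama4. With edgeR the Itgb8 stability change, which has no ESC reads, was -0.99. With each library left out, the mRNA change ran from -0.19 to 0.08 for Itga5 and -0.18 to 0.09 for Itgb5, the nascent change from -0.69 to 0.09 for Lama4, and the stability change from -0.37 to 0.25 for Lama1 and -0.71 to 0.09 for Lama4.

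The main fit did not pair libraries by number. Deviations from the group means correlated by -0.156 to -0.000424 between same-numbered ESC and EpiLC libraries of an assay. Between same-numbered 4sU and total libraries of a cell type they correlated by 0.0241 to 0.484, and 10 of the 12 correlated best with their own number. Total and 4sU RNA were split from the same labelled samples, so the main stability fit leaves out that pairing. With number as a replicate block, members called numbered 7 higher and 10 lower in mRNA, 8 and 7 in nascent RNA (Lamb3 gained, 1.14) and 1 and 1 in stability. With the 4sU and total libraries of a number blocked as a culture, stability gave 1 and 1. Scaling moved the median of all genes by at most 0.10 (TMM factors from the whole table, stability). The depth of the 4sU libraries limits the nascent values of Itga1, Itga4, Itgae, Itgal, Itgb3 and Itgb7.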
